A study of Homo sapiens with 3 samples.

Results

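Sarcospheres grown with TGF-beta1 were set against untreated sarcospheres, gene by gene, in MNNG/HOS, a human bone tumour line obtained from the HOS line by chemical transformation. Sarcospheres are the floating spheres that sarcoma cells form in serum-free medium. The TGF-beta1 culture received 4 ng/mL of the cytokine, and the untreated culture received nothing. Both grew in serum-free DMEM/F12 medium, and their floating spheres were collected after 5 days. A hypoxia culture, grown in the same medium for the same time at an oxygen level that the labels do not give, served here only as a reference point. Each culture gave 1 RNA sample and 1 one-colour (Cy3) array, so no difference below has a replicate check and none has a p-value. "Higher" and "lower" describe the TGF-beta1 array relative to the untreated array, and the hypoxia array is compared with the same untreated array.

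The deposited table held 38572 array features, of which 22356 had no gene name here and the rest gave 14836 named genes. A gene's value was the mean log2 intensity of its features. A gene entered the description where its brighter value, on the TGF-beta1 or the untreated array, reached the median gene value of the same array, which was 402 for TGF-beta1 and 409.6 for untreated. This level is called the floor below, and 7950 of the 14836 genes reached it. The genes nearest to it were STRIP2 (402 with TGF-beta1 against 198 untreated) and ZNF143 (402 against 311) just inside, and ACP2 (402 against 395) and ZNF239 (386 against 409) just outside. The deposited values did not go below 50, and no detection calls came with them.

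Transforming growth factor beta binds a type II receptor kinase, which activates a type I receptor, and the receptor complex phosphorylates SMAD2 and SMAD3. These join SMAD4 and bind DNA together with other transcription factors, and their target genes include feedback inhibitors such as SMAD7 and PMEPA1. The same ligand arrests the cell cycle of many epithelial cells, often through the CDK inhibitors CDKN2B and CDKN1A, while in cells of mesenchymal origin, osteosarcoma among them, it can accompany growth, matrix production and motility.

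The arrays carried the signal of a mesenchymal culture. Of 19 measured mesenchymal and osteosarcoma markers, 15 were above the floor, with VIM, which codes for vimentin, at 34423 with TGF-beta1, 30847 under hypoxia and 29664 untreated. Summed over the list, these markers gave 113918 with TGF-beta1 and 100552 untreated, while their median was 1604 with TGF-beta1 and 1715 untreated. Of the 15 above the floor, 2 were past 1.5-fold higher with TGF-beta1 and 4 past 1.5-fold lower. Most listed markers of other cells were near the bottom of the scale. None of 6 endothelial markers was above the floor. Above it were 1 of 11 blood and immune markers (CD68, 2095 with TGF-beta1 against 1486 untreated), 1 of 9 epithelial markers (ESRP2, 697 against 544) and 1 of 8 neuron, glia and liver markers (SERPINA1, 1363 against 1552). Summed levels of these lists were 613 with TGF-beta1 and 607 untreated for endothelial markers, 2973 and 2433 for blood and immune markers, 1728 and 1631 for epithelial markers, and 2071 and 2093 for neuron, glia and liver markers. The epithelial list leaves out the keratin gene KRT8, which stood at 4193 with TGF-beta1 and 9761 untreated.

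Across the 7950 genes above the floor, 258 (3.25%) stood 2-fold or more above the untreated array with TGF-beta1 and 307 (3.86%) 2-fold or more below it. At 1.5-fold, 998 genes (12.6%) were higher and 912 (11.5%) lower, and the other 6040 genes (76.0%) lay within 1.5-fold. In the gene groups below, members counted as higher or lower are those past 1.5-fold. The 12.6% higher and 11.5% lower among all genes are the shares to set beside each count. The median log2 difference was 0.05, the middle 90% of genes lay between -0.89 and 0.88, and over all 14836 named genes the median was -0.00285. Many of the 2-fold differences had a dim side. In 163 of the 258 higher genes the untreated array was below its own median, and in 183 of the 307 lower genes the TGF-beta1 array was. The 95 higher and 124 lower genes that were above the median on both arrays are those whose size is best measured. As bulk RNA, these values cannot tell fewer cells of a kind from less RNA per cell.

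**Figure D1:**
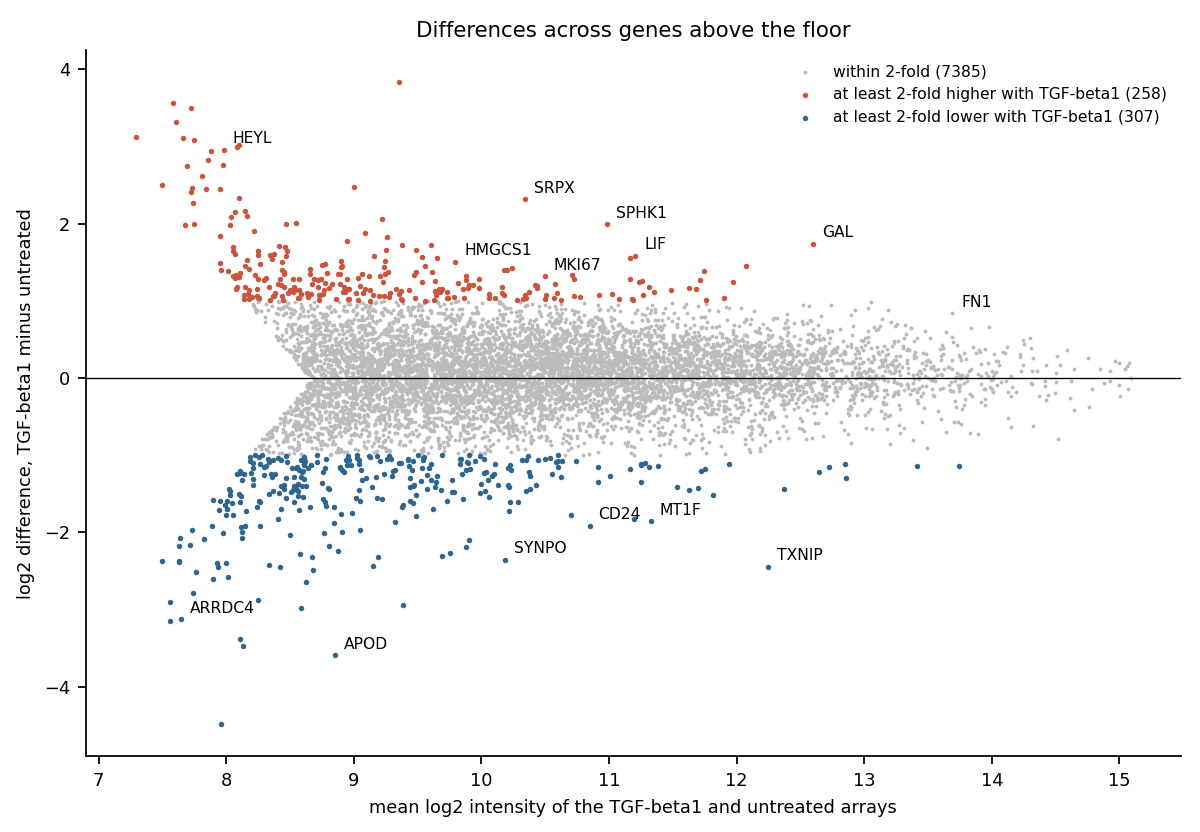
Each point is 1 of the 7950 genes above the floor, with the mean log2 intensity of the TGF-beta1 and untreated arrays on the x axis and the log2 difference (TGF-beta1 minus untreated) on the y axis. The 258 higher genes and the 307 lower genes fan out at low intensity, where 1 array is dim, while TXNIP, GAL and FN1 lie among brighter genes.

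Genes with several features gave a view of how far the features of 1 gene differed. Of 699 such genes above the floor, the features of 1 gene typically differed by an SD of 0.17 on the log2 scale (median; 75th percentile 0.30). All features pointed the same way in 11 of 11 genes that were at least 2-fold higher and in 23 of 24 that were at least 2-fold lower. Among these, the largest differences upward were those of PLAUR, the urokinase receptor (1983 with TGF-beta1 against 738 untreated, log2 difference 1.43), PAEP, the secreted protein glycodelin (471 against 178), RBL1, the RB-related pocket protein p107 (932 against 373), PSMC3IP, a recombination factor (1139.8 against 483), and TCOF1, the nucleolar protein treacle (1454 against 629.8). The largest downward were those of MAF, a leucine-zipper transcription factor (261 with TGF-beta1 against 1306 untreated, log2 difference -2.33), PPARG, the nuclear receptor of fat cell formation (93.2 against 422), NFATC2, a calcium-regulated transcription factor (146 against 551), FILIP1L (306 against 921) and CAMK1D, a calcium-dependent kinase (347 against 1028). Features of 1 gene were read from the same RNA on the same array, so their agreement says nothing about the spread between cultures. These genes were called on the mean of the same features, so agreement in direction was largely set in advance. Every feature was at least 2-fold higher in 4 of the 11 and at least 2-fold lower in 13 of the 24. The features lay far apart in PAEP (log2 differences 0.81 and 2.01), FILIP1L (-2.07 and -1.11) and MAF (-2.72 and -1.93).

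Among genes above the median on both arrays, the 15 largest differences upward were read gene by gene. SRPX, a secreted sushi-repeat protein, stood at 2899 with TGF-beta1, 793 under hypoxia and 582 untreated (log2 difference from untreated 2.32, the largest). SPHK1, the kinase that makes sphingosine-1-phosphate, stood at 4050.1, 1486 and 1018 on the same arrays. The neuropeptide gene GAL stood at 11339.5 with TGF-beta1, 3591 under hypoxia and 3399.7 untreated, so that its difference of 1.74 had a counterpart of 0.08 under hypoxia. LIF, leukemia inhibitory factor, and CCN1, a matricellular protein, were also high on the hypoxia array: LIF stood at 4095 with TGF-beta1, 3458 under hypoxia and 1365 untreated, and CCN1 at 3941, 4918 and 1337. The other genes among the 15 largest were DIPK1B (1.72), CGB5, a chorionic gonadotropin beta gene (1.57), AEN, a p53-induced exonuclease (1.55), the sterol enzyme gene HMGCS1, PTPRN, a receptor-type phosphatase of secretory granules (1.46), SPC24 (1.45), PLAUR (1.43), CKS2 (1.40), PTTG2 (1.39) and MRPL41 (1.38). CGB5 and PTTG2 have close paralogs, and whether their features read those as well was not tested.

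TXNIP, the thioredoxin-interacting protein that restrains glucose uptake, had the largest difference among genes that were lower and above the median on both arrays. It stood at 2081 with TGF-beta1, 4471 under hypoxia and 11330.3 untreated (log2 difference from untreated -2.45). SYNPO, an actin-associated protein, stood at 515 with TGF-beta1, 1788 under hypoxia and 2639 untreated. PLAAT3, a phospholipase, stood at 461, 1554 and 1980.4 on the same arrays, and PTGDS, a prostaglandin D synthase, at 1245, 2519 and 4418. In each of these the TGF-beta1 array was lowest and the hypoxia array lay between it and the untreated array. CD24, a surface glycoprotein, took another order, at 949.9 with TGF-beta1, 4226 under hypoxia and 3577 untreated. TMT1B, SOX13, OLFML2A and LAMA5 were likewise lowest with TGF-beta1 and highest under hypoxia. The rest of the 15 were HOXB5 (-2.19), MT1F (-1.86), ZNF608 (-1.78), the orphan receptor kinase ROR1 (-1.72), LRRC43 (-1.70) and WIPI2, an autophagy protein (-1.61).

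**Figure D2:**
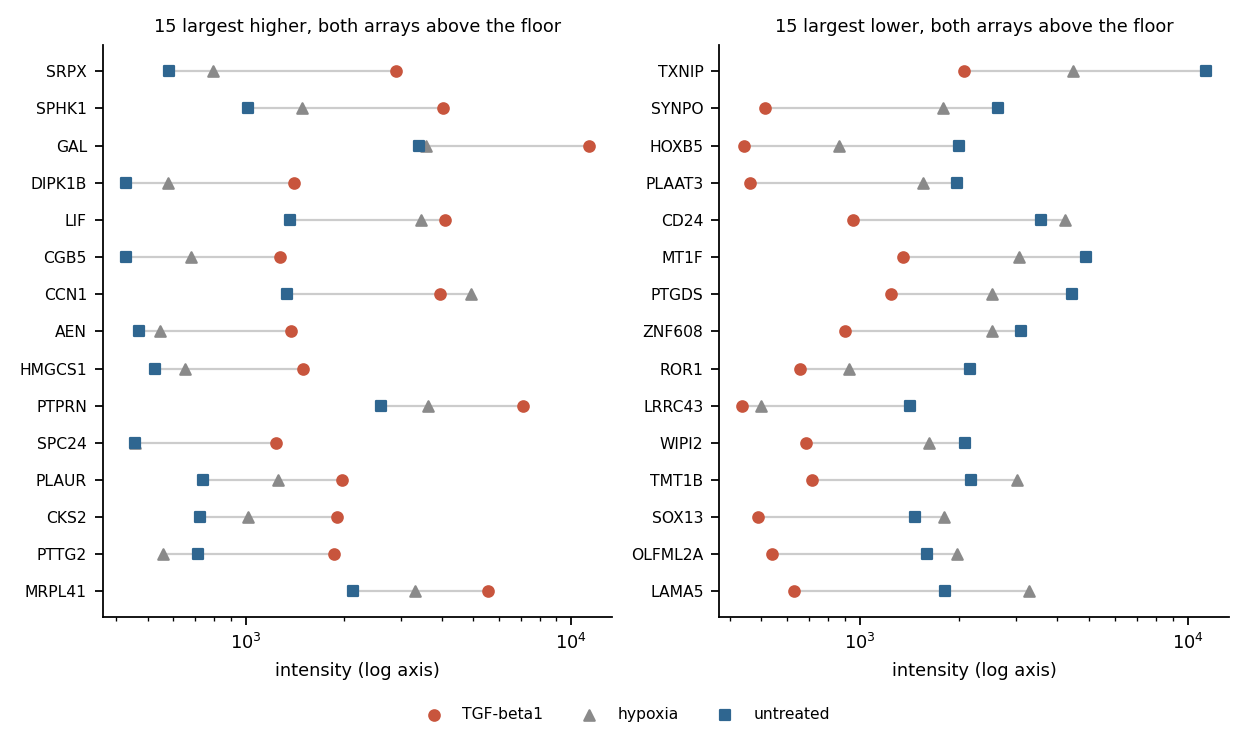
Intensity on a log axis for the 15 genes with the largest differences in each direction among those above the median on both arrays, with circles for TGF-beta1, triangles for hypoxia and squares for untreated, 1 array each. The hypoxia value of GAL lies beside the untreated one, that of SPC24 is hidden under it, those of LIF and CCN1 lie near the TGF-beta1 value, and that of LAMA5 lies beyond the untreated one.

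The first group of genes was the TGF-beta pathway itself. Of 27 measured ligands, latency proteins and receptors, 15 were above the floor, with 1 higher and 4 lower, and the median difference over the 27 was 0.03. TGFB1, the gene of the added ligand, stood at 19775 with TGF-beta1, 27329.8 under hypoxia and 18595 untreated. TGFB3, a related ligand, was lower (223 with TGF-beta1 against 643 untreated), and LTBP2, a latency-associated microfibril protein, was higher (5675 against 3732). The receptor subunit gene TGFBR2 stood at 3082 with TGF-beta1 against 4216 untreated, and TGFBR3, the betaglycan co-receptor, at 466 against 1028. BAMBI, a decoy receptor without kinase activity, had the largest difference of the group, with 178 with TGF-beta1, 455.9 under hypoxia and 734 untreated (log2 difference from untreated -2.04).

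Among SMAD genes and their regulators, 2 of 12 above the floor were higher (16.7%), 3 lower (25%) and 7 within 1.5-fold. Among all genes the shares were 12.6% higher and 11.5% lower, and 12 genes give only a rough share. Both higher genes code for inhibitors of the pathway: PMEPA1, which binds SMAD2 and SMAD3, stood at 3428 with TGF-beta1, 2886 under hypoxia and 1917 untreated, and SMAD7, which blocks the type I receptor, at 2503, 2811 and 1566. The lower genes were SMAD3 (1665 with TGF-beta1 against 2629 untreated), the ubiquitin ligase NEDD4L (336 against 649.5) and the co-repressor TGIF1 (1701 against 2620.3). SMAD2 differed by 0.19 and SMAD4 by -0.01. On the hypoxia array PMEPA1 and SMAD7 were thus above the untreated array as well.

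Known SMAD-dependent target genes of TGF-beta included 15 of 46 above the floor that were higher, beside 12.6% among all genes, and 5 that were lower, beside 11.5%. This list was written with earlier results of these data known, so its shares describe the members and test nothing. The other 26 lay within 1.5-fold, and of all 60 measured members 30 were brighter with TGF-beta1, with a median difference near 0. Besides SPHK1, LIF, CCN1 and PLAUR, the higher members included ADAM19, a membrane metalloproteinase (2097 with TGF-beta1, 875 under hypoxia and 914 untreated), the pleckstrin-family gene PLEK2 (2119, 1699 and 1003), the cytokine gene IL11 (478, 468 and 229), and CCN2 (1215, 2057 and 592). Fibronectin, FN1, stood at 17679 with TGF-beta1, 7844 under hypoxia and 9906 untreated (log2 difference from untreated 0.84). TGFBI, an adhesion protein, differed by -0.09, SNAI2, an EMT transcription factor, by -0.27, and IGFBP3, an IGF-binding protein, by -1.92 (122 with TGF-beta1 against 462 untreated). BAMBI, described above as a decoy receptor, is also on this list. Its difference of -2.04 was the largest in size among the members above the floor, and it was downward. Within the list, ADAM19 and FN1 had hypoxia values at or below the untreated ones, while the CCN1 and CCN2 values were highest under hypoxia.

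The BMP branch of the family also held members of both kinds. Of 9 measured above the floor (27 measured), 3 were higher and 2 lower. GREM1, a secreted BMP antagonist, stood at 3576 with TGF-beta1, 1578 under hypoxia and 1476 untreated. The ligand gene BMP7 was higher (1007 with TGF-beta1 against 545 untreated), and BMP4 (337 against 996) and BMP8B (905 against 1890.4) were lower. ID2, an inhibitory helix-loop-helix protein that BMP signals induce, stood at 2778 with TGF-beta1 against 1826 untreated, and on the hypoxia array at 2873.

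Cell-division genes differed in 1 direction almost throughout. Of 107 measured genes of mitosis, the spindle and the kinetochore, 104 were brighter with TGF-beta1, with a median log2 difference of 0.75. Above the floor, 70 of 89 members were higher, 0 were lower and 19 lay within 1.5-fold, beside 12.6% higher among all genes. Some of the 89 reached the floor on the TGF-beta1 array only. Over the 69 members with both arrays at or above the median, the median difference was 0.75. The differences were moderate in size: 19 members were at least 2-fold higher, and none reached 3-fold. MKI67, the proliferation antigen Ki-67, stood at 2278 with TGF-beta1, 1149 under hypoxia and 914 untreated (log2 difference from untreated 1.32). ANLN, the cytokinetic ring protein anillin, stood at 1257, 628 and 486 on the same arrays. Genes of the NDC80 complex and the inner kinetochore had some of the largest differences. NDC80 stood at 415 with TGF-beta1 against 148 untreated, SPC24 at 1241 against 455.7, CENPK at 993 against 365 and CENPN at 788 against 290.1. Of these, NDC80, CENPK and CENPN were below the median on the untreated array. The mitotic kinase gene AURKB stood at 11966 with TGF-beta1, 6266 under hypoxia and 6057 untreated, and PLK1 at 6998, 4859 and 4162. For MKI67, ANLN, AURKB and PLK1 the hypoxia array lay nearer to the untreated than to the TGF-beta1 array. The same held for NDC80, SPC24 and CENPN. CENPK, at 654 under hypoxia, was nearer to the TGF-beta1 array in log2 terms (0.84 above untreated and 0.60 below TGF-beta1).

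The genes of DNA replication showed the same direction. Of 60 measured members, 54 were brighter with TGF-beta1, with a median difference of 0.68, and above the floor 32 of 52 were higher and 1 was lower. The largest differences were those of WDHD1, a replisome adaptor (488 with TGF-beta1 against 92.1 untreated), and GMNN, the licensing inhibitor geminin (469 against 97.6), whose untreated values were near the bottom of the scale. Origin factors followed, with ORC1 at 711 with TGF-beta1 against 276 untreated, and PRIM1, the primase subunit, at 926 against 390.2. WDHD1, GMNN, ORC1 and PRIM1 reached the floor on the TGF-beta1 array only. Over the 41 members with both arrays at or above the median, the median difference was 0.71. MCM7, a subunit of the replicative helicase, stood at 12484 with TGF-beta1, 8232.5 under hypoxia and 7657 untreated, and PCNA, the sliding clamp, at 5379, 3664 and 2871.

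Several regulators of these genes were also higher. Of 22 cyclin, CDK, E2F and RB-family genes above the floor, 10 were higher and 0 lower. E2F1, which drives entry into S phase, stood at 970.2 with TGF-beta1, 568 under hypoxia and 380.2 untreated, PKMYT1, an inhibitory kinase of CDK1, at 1027, 414 and 358, and CKS2, a CDK-binding subunit, at 1908, 1019 and 725. Enzymes that supply nucleotides ran alongside them, with 15 of 29 above the floor higher, 1 lower (CTPS2) and a median of 0.57 over all 30 measured. RRM2, the regulated subunit of ribonucleotide reductase, stood at 1458 with TGF-beta1 against 606 untreated, and TYMS, thymidylate synthase, at 18331 against 11663. Among homologous recombination, Fanconi and mismatch repair genes, 13 of 31 above the floor were higher and 1 lower, with BRCA2 at 711 with TGF-beta1 against 328 untreated and FANCD2 at 1227 against 598.

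Replication-dependent histone genes did not share that direction. Of 44 above the floor, 3 were higher (6.82%) and 7 lower (15.9%), beside 12.6% and 11.5% among all genes. The median over the 62 measured was -0.22. H3C8 stood at 429.5 with TGF-beta1 against 75.7 untreated, H4C15 at 1001 against 1791 and H3C10 at 533 against 1019. Histone genes are near-identical in their coding sequence and make messages without a poly(A) tail, and whether the labelling and the features read each of them alone was not tested.

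**Figure D3:**
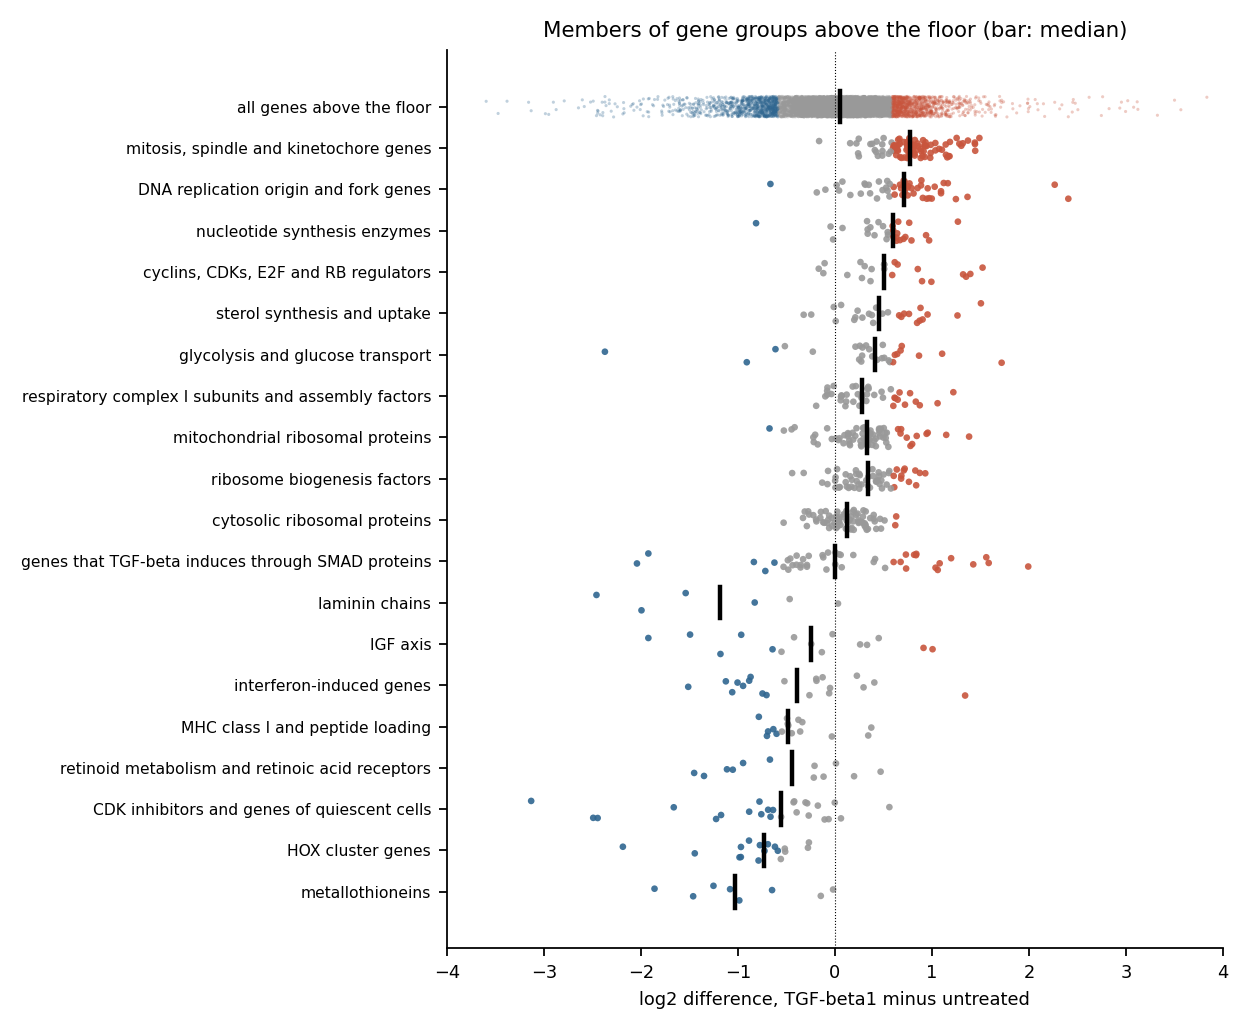
Log2 difference (TGF-beta1 minus untreated, x axis) of each gene above the floor, for all 7950 such genes and for 19 gene groups, with red points past 1.5-fold higher, blue points past 1.5-fold lower and a black bar at the median. Mitosis and replication genes lie almost wholly right of 0, cytosolic ribosomal proteins centre near all genes, and HOX genes and metallothioneins lie left of 0.

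Because mitosis genes differed together, their promoters were read for the element that such genes are known to share. The cell cycle genes homology region (CHR, letters TTTGAA) is bound by the DREAM and MYB-MuvB complexes, which silence mitotic genes in resting cells and activate them in dividing ones. ANLN and MKI67 each hold 2 copies within the 100 bases before the RefSeq transcript start, shown here with the copies in capitals (GRCh38.p14; in ANLN the first copy is on the opposite strand).
ANLN, chr7:36389762-36389861, plus strand: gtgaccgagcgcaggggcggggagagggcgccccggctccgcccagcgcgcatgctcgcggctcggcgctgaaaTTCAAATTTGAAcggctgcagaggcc
MKI67, chr10:128126424-128126523, minus strand: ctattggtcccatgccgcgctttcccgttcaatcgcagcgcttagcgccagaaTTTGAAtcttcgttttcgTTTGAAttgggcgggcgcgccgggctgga

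Over 1 RefSeq promoter per gene, from 250 bases before to 50 after the start and on both strands, the CHR was present in 51 of 89 mitosis genes with a promoter in the table (57.3%), against 8.75% of the 6592 genes above the floor with a promoter and 15.4% of all 27305 promoters. The CCAAT box (letters CCAAT) was present in 67.4% of the mitosis promoters and in 37.6% of those above the floor. Replication genes differed from mitosis genes in this respect: 2 of 51 had a CHR, while 18 of 51 (35.3%) had an E2F site (TTTCCCGC or TTTGGCGC), which 4.20% of promoters above the floor had. These elements are a property of the groups, and within the mitosis list they did not sort the differences. The 41 members above the floor with a CHR had a median difference of 0.76 and the 31 without one 0.80. Outside the mitosis and replication lists, genes above the floor had a median of 0.08 with a CHR (535 genes) and 0.04 without (5938 genes).

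Taken over whole sets of called genes, the shares were smaller. A CHR was present in 34 of 213 promoters of genes at least 2-fold higher (16.0%) and in 19 of 232 of genes at least 2-fold lower (8.19%), and a CCAAT box in 48.4% and 34.1%. The 8-base SMAD palindrome (GTCTAGAC) was present in 0 of 213 and 0 of 232 promoters of these sets and in 5 of 6592 above the floor. An AP-1 site (TGACTCA) was present in 3.29% and 4.74%, against 2.84% above the floor. No match means only that these letters are not in this window.

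Genes tied to rest and growth restraint were lower as a group. Of 25 CDK inhibitors and genes of quiescent cells above the floor (44 measured), 12 were lower (11.5% among all genes) and 0 higher. Of the 44, 36 were dimmer with TGF-beta1. Their median difference was -0.41, and it ranged from -0.64 to -0.12 under other processing. The 12 lower members include TXNIP, ARRDC4 and ARRDC3, which the next paragraph takes up again as alpha-arrestins. BTG2, an antiproliferative gene that p53 induces, stood at 173 with TGF-beta1, 243 under hypoxia and 970.3 untreated. Like ARRDC4 and ARRDC3, BTG2 reached the floor on the untreated array only. MXD4, a MAX partner that opposes MYC, stood at 686 with TGF-beta1, 1854 under hypoxia and 1602 untreated, and ZFP36L2, an mRNA-decay factor, at 494, 1384 and 1115. The hypoxia array was thus low for BTG2 and high for MXD4 and ZFP36L2. Among CDK inhibitors, CDKN1A, the p21 inhibitor, lay within 1.5-fold at -0.39 (3370.1 with TGF-beta1 against 4430.3 untreated). CDKN1B was below the floor on both arrays. MYC stood at 935 with TGF-beta1, 1485 under hypoxia and 478 untreated.

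The alpha-arrestins, trafficking adaptors to which TXNIP belongs, split by member. ARRDC4 stood at 67.8 with TGF-beta1, 165 under hypoxia and 594 untreated (log2 difference from untreated -3.13), and ARRDC3 at 248, 354 and 785. ARRDC2 (-0.18) and ARRDC1 (0.16) differed little. TXNIP and ARRDC4 are known targets of the glucose-sensing MLX and MondoA factors, which bind paired E-boxes. The ARRDC4 window from 250 to 151 bases before the RefSeq start is shown, chosen after its values were seen, with the E-box CACGTG in capitals (GRCh38.p14).
ARRDC4, chr15:97960453-97960552, plus strand: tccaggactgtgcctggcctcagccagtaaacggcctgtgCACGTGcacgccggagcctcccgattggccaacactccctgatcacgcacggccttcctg
That E-box was present in 1 of 5 alpha-arrestin promoters and in 10.9% of promoters above the floor. MLX was higher with TGF-beta1 (562 against 348 untreated), and MLXIP, the MondoA gene, differed by -0.05.

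Groups that build ribosomes and mitochondria were higher by small amounts. Ribosome biogenesis factors had 54 of 62 members brighter and 12 of 59 above the floor higher, with 0 lower. Their largest differences were those of DDX21, a nucleolar helicase (1002 with TGF-beta1 against 526 untreated), and NOC2L (2847 against 1553). Mitochondrial ribosomal proteins had 65 of 77 brighter, with 11 of 72 above the floor higher and 1 lower (MRPL19). MRPL41 stood at 5552 with TGF-beta1, 3316 under hypoxia and 2129 untreated. Complex I genes had 36 of 44 brighter and 11 of 41 above the floor higher, led by the assembly factor NDUFAF2 (2336 with TGF-beta1 against 1003 untreated) and the subunit NDUFA8 (871 against 418). The shares called higher in the first pair of groups, 12 of 59 and 11 of 72, were close to or moderately above the 12.6% among all genes. Cytosolic ribosomal proteins had 2 of 73 higher and 0 lower, fewer than that share.

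Sterol synthesis and uptake genes had 24 of 30 members brighter with TGF-beta1, and 11 of 26 above the floor were higher with 0 lower. The HMG-CoA synthase gene HMGCS1 stood at 1497 with TGF-beta1, 652 under hypoxia and 528 untreated, and DHCR7, which acts at the last step of cholesterol synthesis, at 5213, 3929.9 and 2172. INSIG1, an anchor protein in SREBP processing, stood at 4783, 3135 and 2596. The sterol regulatory element (TCACCCCAC) was present in 1 of 23 sterol promoters, that of SREBF2 itself, against 0.455% above the floor. SREBF2 stood at 920.2 with TGF-beta1 against 756 untreated (log2 difference 0.28), and its window from 179 to 80 bases before the RefSeq start is shown with the element in capitals (GRCh38.p14).
SREBF2, chr22:41832926-41833025, plus strand: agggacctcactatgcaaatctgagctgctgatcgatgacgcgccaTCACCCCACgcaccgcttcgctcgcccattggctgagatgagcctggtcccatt
Fatty acid and phospholipid synthesis genes had 6 of 25 higher and 0 lower. Among these, ACSS2, acetyl-CoA synthetase, stood at 2654 with TGF-beta1, 2551 under hypoxia and 1053 untreated, while FASN, fatty acid synthase, stood at 10809, 14069 and 6869.

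Of 28 glycolysis and glucose transport genes above the floor, 8 were higher and 3 lower, beside 12.6% and 11.5% among all genes. ALDOC, an aldolase, stood at 1209.5 with TGF-beta1, 774 under hypoxia and 368 untreated, HK2, the inducible hexokinase, at 762, 323 and 354, and LDHA, lactate dehydrogenase, at 3253, 2109.9 and 2035. PGAM2, the muscle phosphoglycerate mutase, stood at 87.2 with TGF-beta1 against 451 untreated. In the iron group, TFRC, the transferrin receptor, stood at 1086 with TGF-beta1, 396 under hypoxia and 344 untreated.

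HOX genes, which encode positional homeodomain factors in 4 clusters, were lower as a group. Of 34 measured, 29 were dimmer with TGF-beta1, with a median difference of -0.60, and of 17 above the floor 12 were lower and 0 higher, beside 11.5% lower among all genes. HOXB5 stood at 442 with TGF-beta1, 865 under hypoxia and 2011 untreated, and HOXB6 at 462, 1201 and 1257. HOXC6 stood at 2210.4 with TGF-beta1, 2149 under hypoxia and 4370.0 untreated, and HOXC10 at 2157, 2284 and 3984. By cluster, 3 of 3 HOXA, 4 of 7 HOXB, 5 of 6 HOXC and 0 of 1 HOXD genes above the floor were lower. Over all measured genes of a cluster, the median with TGF-beta1 was -0.63 for HOXA, -0.58 for HOXB, -0.76 for HOXC and 0.40 for HOXD, and under hypoxia it was -0.51, -0.07, -0.59 and -0.01, against the same untreated array. Of the 6 measured HOXD genes, 1 was above the floor. Genes of 1 cluster lie next to each other and are not independent.

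Metallothioneins, small zinc- and copper-binding proteins encoded side by side, were lower as well. All 10 measured members were dimmer with TGF-beta1, and 6 of 8 above the floor were lower. MT1F stood at 1351 with TGF-beta1, 3045 under hypoxia and 4899.8 untreated, MT1G at 228, 368 and 627, and MT1E at 391, 630.4 and 930.0. MT2A (11782 with TGF-beta1 against 13033 untreated) and MT1A (5359 against 5429.9) had log2 differences of -0.15 and -0.02. The coding sequences of these genes are close to each other, and whether a feature read 1 member alone was not tested.

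**Figure D4:**
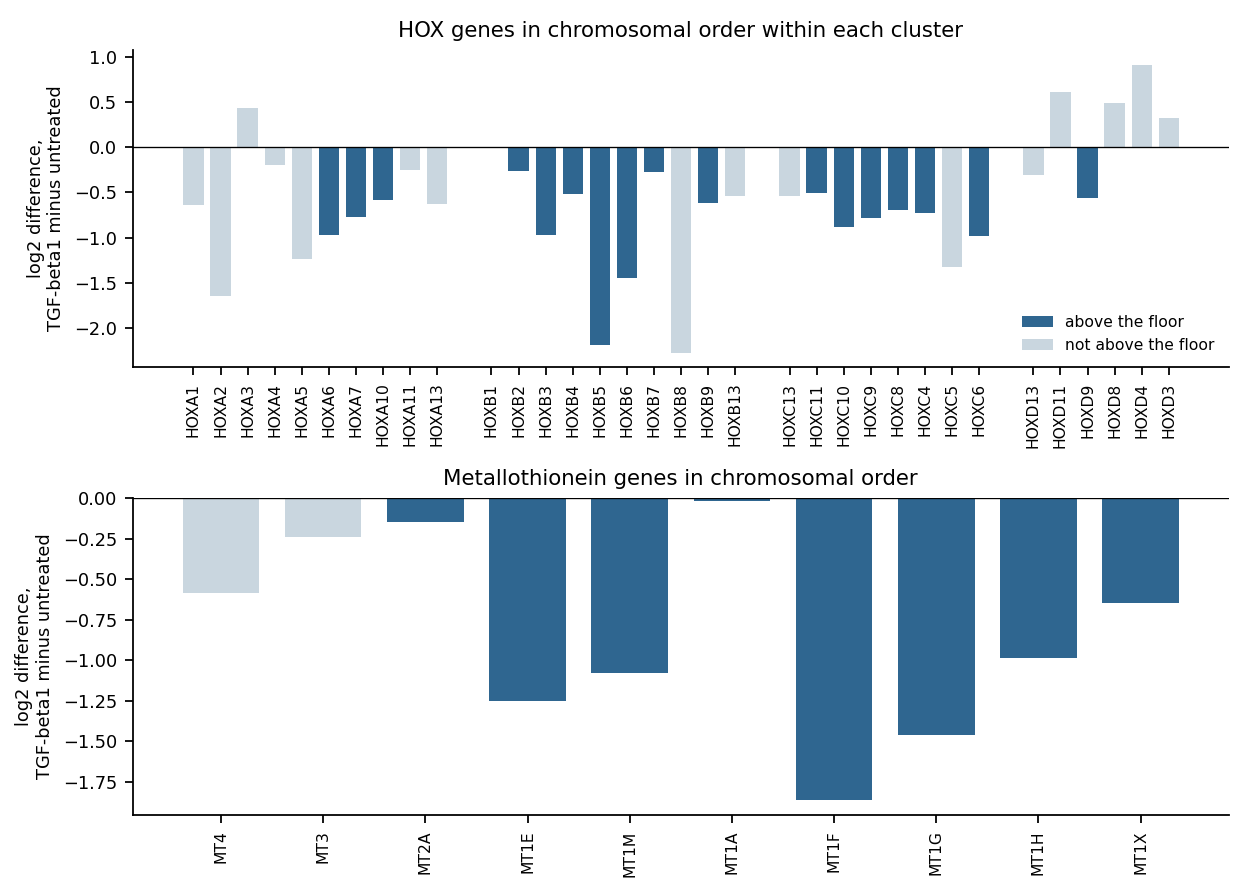
Log2 difference (TGF-beta1 minus untreated, y axis) for each measured HOX gene by cluster (upper panel) and each measured metallothionein gene (lower panel), in chromosomal order, with dark bars for genes above the floor and pale bars for the rest. The 17 dark HOX bars and the 8 dark metallothionein bars all point down, and HOXB5 and MT1F have the longest of them.

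Above the floor, matrix genes were past 1.5-fold lower more often than higher, beside 11.5% lower and 12.6% higher among all genes. Of 6 laminin chain genes above the floor, 4 were lower: LAMA4 (147 with TGF-beta1, 745 under hypoxia and 806 untreated), LAMA3 (139.6, 388 and 556), LAMA5 (627, 3283 and 1821) and LAMB2 (1485, 4431 and 2634). LAMB1 and LAMC1, the beta and gamma chains of the common laminins, differed by 0.03 and -0.47. Of the 12 laminin chains measured, 5 were brighter with TGF-beta1 and 7 dimmer. Among 16 collagen genes above the floor, 6 were lower and 1 was higher. Of the 33 measured, 16 were brighter with TGF-beta1 and 17 dimmer, with a median of -0.05. Over the 13 with both arrays above the median it was 0.006. COL12A1 stood at 393 with TGF-beta1, 1483 under hypoxia and 1891 untreated, and COL3A1 at 371, 379 and 902, while COL9A3 stood at 1570.5, 844 and 648. COL1A1, the main collagen of bone, differed by 0.01. Among these laminins and collagens, LAMA4, LAMA3, COL12A1 and COL3A1 reached the floor only on the untreated array. Of 32 matrix glycoprotein and proteoglycan genes above the floor, 8 were lower and 3 higher (SRPX, SPOCK1 and FN1). EDIL3, an integrin ligand, stood at 84.0 with TGF-beta1 against 932 untreated, TNC, tenascin C, at 7358 against 16180.0, and SPOCK1, a testican proteoglycan, at 1222 against 292.

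Receptors and junction proteins that hold cells to matrix and to each other were lower more often than higher. Among all genes, 11.5% were lower and 12.6% higher, and the lists here are short. Of 10 integrin subunits above the floor, 4 were lower and 1 higher. ITGA11, a collagen receptor subunit, stood at 4745 with TGF-beta1, 10803 under hypoxia and 11621 untreated, and ITGB4, the laminin receptor subunit of hemidesmosomes, at 528, 2251 and 1479. ITGA5, the fibronectin receptor subunit, was the higher one, at 6066 with TGF-beta1 against 3332 untreated, beside the higher FN1 above. Of 13 cadherins and protocadherins above the floor, 5 were lower and 0 higher, with CDH11, the osteoblast cadherin, at 629 with TGF-beta1, 1295 under hypoxia and 1742 untreated, and CDH2 differing by 0.26. Of 14 keratin and desmosomal genes above the floor, 6 were lower and 0 higher, with KRT8 at 4193 with TGF-beta1, 8402 under hypoxia and 9761 untreated.

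EMT factors and bone genes gave mixed values. PRRX1, a mesenchymal homeodomain factor, stood at 598 with TGF-beta1, 272 under hypoxia and 134 untreated (log2 difference from untreated 2.16), while TWIST1 stood at 1987, 3205 and 3632. ZEB1 differed by 0.54 and SNAI1 by 0.41. In the bone group, 4 of 12 above the floor were lower and 0 higher: DLX5, an early osteoblast factor (378 with TGF-beta1 against 1181 untreated), CDH11, GPNMB (976 against 2304) and SPP1, osteopontin (214 against 473). RUNX2, the master factor of osteoblasts, differed by 0.44. In the actin group, 2 of 31 above the floor were higher (6.45%) and 5 lower (16.1%), beside 12.6% and 11.5% among all genes. The higher ones were SMTN, smoothelin (1561 with TGF-beta1 against 732 untreated), and ACTA2, smooth muscle actin (653 against 393).

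Of 12 chondrocyte and adipocyte genes above the floor, 5 were lower and 2 higher, and 11 of the 24 measured were brighter, with a median of -0.04. APOD, a lipocalin of resting cells, stood at 133 with TGF-beta1, 1132 under hypoxia and 1606 untreated, and APOE at 216, 898 and 1024. SELENOP, a secreted selenium carrier from the selenoprotein list, stood at 85.6 with TGF-beta1, 534 under hypoxia and 890.5 untreated. In each of the 3 the TGF-beta1 value was below the floor and the hypoxia value was nearer to the untreated one. FABP5, a fatty acid-binding protein, went the other way, at 5486 with TGF-beta1, 3829 under hypoxia and 2664 untreated.

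Retinoid genes and the IGF axis had several lower members, beside 11.5% lower and 12.6% higher among all genes. Of 12 retinoid genes above the floor, 6 were lower and 0 higher: STRA6, the retinol uptake receptor (318 with TGF-beta1 against 869 untreated), CRABP2, a retinoic acid carrier (1529.7 against 3897), the dehydrogenases RDH5 (619.9 against 1340.3) and RDH10 (637 against 1321), and the receptors RARG (439 against 846) and RXRA (901 against 1433). Of 15 IGF-axis genes above the floor, 5 were lower (33.3%) and 2 higher (13.3%, near the share among all genes). IGFBP4 stood at 2291 with TGF-beta1, 6723 under hypoxia and 5189 untreated, IGFBP5 at 3152, 13459 and 6155, and IGFBP6 at 203, 608 and 573, while IGFBP7 was higher at 5305, 3368 and 2818. On the hypoxia array these 4 stood above untreated, while IGFBP3, given above, was lower there too (253 against 462).

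Antigen-presentation and interferon genes were lower by modest amounts. Among all genes, 11.5% were lower and 12.6% higher. Of 21 MHC class I and peptide-loading genes, 18 were dimmer with TGF-beta1, with a median of -0.49, and 5 of 16 above the floor were lower with 0 higher. B2M, the light chain of MHC class I, stood at 2497 with TGF-beta1, 3659 under hypoxia and 3788 untreated, and HLA-B at 4661, 6856 and 7513. HLA genes share long stretches of sequence, and whether their features read 1 gene alone was not tested. Of 20 interferon-induced genes above the floor, 9 were lower and 1 was higher (HERC5, 852 with TGF-beta1 against 336 untreated). GBP2, a guanylate-binding protein, stood at 425 with TGF-beta1, 1076 under hypoxia and 1211 untreated, and STAT2 at 1423, 2661 and 2386.

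Of 20 BCL2-family and death-receptor genes above the floor, 6 were higher and 4 lower. The higher ones were the 4 TRAIL receptor genes, PMAIP1 and BAX. TNFRSF10C stood at 936 with TGF-beta1 against 507 untreated, TNFRSF10D at 1623 against 976, TNFRSF10B at 2384 against 1446 and TNFRSF10A at 1132 against 697. On the hypoxia array they stood at 755, 1481, 2329 and 1362, also above untreated. PMAIP1 and BAX, pro-apoptotic genes that p53 induces, were higher too (1081 against 604, and 2760.1 against 1778), while BMF, another pro-apoptotic gene, stood at 692 with TGF-beta1 against 1809 untreated.

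Of 15 Notch genes above the floor, 3 were higher and 3 lower, 20% each way, beside 12.6% and 11.5% among all genes. HEYL, a Notch target, stood at 704 with TGF-beta1, 109 under hypoxia and 91.0 untreated, and HES1, another, at 11241, 9810.3 and 7066. The ligand gene DLL1 was lower (209 with TGF-beta1 against 452 untreated), as was MAML1, a Notch co-activator (546 against 1022). FZD9, a Wnt receptor gene, stood at 462 with TGF-beta1, 105 under hypoxia and 53.1 untreated, at the bottom of the scale. LEF1, a Wnt effector, stood at 4732, 1164 and 2108, and its relatives TCF7L1 (1813, 4799 and 4819) and TCF7L2 (4547, 8587 and 10100.1) were lower. Among 21 Wnt genes above the floor, 5 were higher (23.8%) and 9 lower (42.9%), beside 12.6% and 11.5% among all genes.

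By chromosome, the medians of genes above the floor lay between -0.13 (chromosome 14) and 0.18 (chromosome 20), apart from chromosome 9. Its 321 genes had a median of 0.30, and 74.1% of them were brighter with TGF-beta1. Of them, 6.23% stood 2-fold or more above the untreated array and 1.87% as far below it, beside 3.25% and 3.86% among all genes. Against hypoxia the TGF-beta1 median of the same genes was 0.21, and the hypoxia array differed from the untreated one by a median of 0.06. Divided into 8 consecutive stretches of 40 or 41 genes, the chromosome had medians between 0.11 and 0.41, and the first stretch, from WASHC1 to FANCG, was the lowest. The chromosome was singled out after its values were seen.

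**Figure D5:**
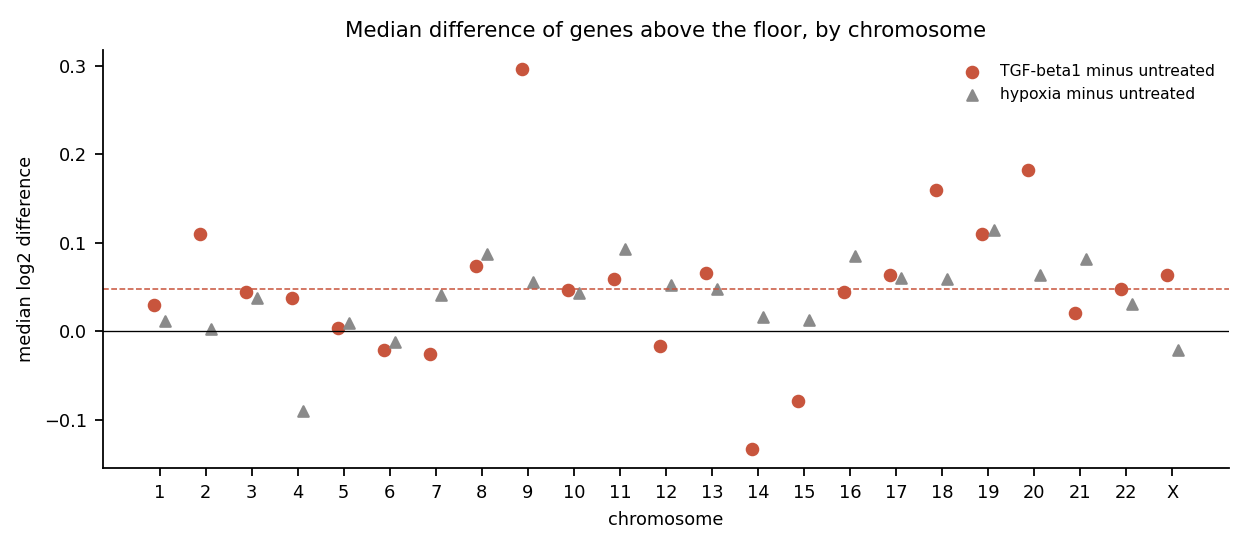
Median log2 difference (y axis) of genes above the floor on each chromosome (x axis), with circles for TGF-beta1 minus untreated and triangles for hypoxia minus untreated, both against the same untreated array, and a dashed line at the median of all 7950 genes for TGF-beta1 (0.05). Chromosome 9 stands at 0.30 with TGF-beta1 and at 0.06 under hypoxia.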

How the data were processed

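RNA from 3 cultures of MNNG/HOS sarcospheres (TGF-beta1, hypoxia and untreated) was measured with 1 NimbleGen one-colour array each. The authors deposited 1 intensity value per feature and array, on a linear scale. No source used here states the background correction, probe summary, normalization or genome build, and the column medians were 363 (TGF-beta1), 395 (hypoxia) and 383 (untreated).

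Features were named from the platform annotation through Entrez identifiers (15623) or through RefSeq accessions (593), and 22356 were not named. Intensities were averaged per gene as log2 values, without a pseudocount, with no further normalization. A call was a 2-fold difference with the brighter array at or above its median gene value. For list members the fold was 1.5. No feature was filtered otherwise, and no test was run, since a group held 1 array. The calling step was tested on simulated data.

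The members, the 85 gene lists and the rules were chosen with earlier results of these data known. Genes were named by rule: the 15 largest differences each way above the median on both arrays, the 5 largest each way with several agreeing features, up to 4 leading members per list, and members named for their role. Promoters came from RefSeq (GRCh38.p14), with 8 motifs searched on both strands; 6592 genes above the floor matched. Alternatives concerned scaling, feature summary, offset, floor and threshold. Python 3.11.15, pandas 2.3.3, numpy 2.4.6 and statsmodels 0.14.6 were used. The number of arrays limits the precision.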

Additional observations from a re-analysis of the deposited data

How the results depend on the processing

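The counts of 258 higher and 307 lower genes kept within 1.5 times under other scalings and summaries: 289 and 287 with arrays centred on the median gene value, 290 and 278 with quantile normalization, 251 and 319 with loess centring, 258 and 311 with the median over features, 255 and 298 with the brightest feature, and 199 and 250 with an offset of 50. They moved further with the floor and the threshold, by construction: 95 and 124 with both arrays at or above the median, 648 and 807 with no floor, 63 and 90 with a floor at the 75th percentile, 11 and 24 among genes with at least 2 features, 998 and 912 at 1.5-fold, and 56 and 92 at 3-fold. The share of calls that were higher was 45.7%, 41.2% to 51.1% under the other scalings, summaries, offset and floors, 52.3% at 1.5-fold, 37.8% at 3-fold and 31.4% among genes with several features. Differences of single genes were followed for a limited set of genes over several settings, where 1913 values kept their size and 58 moved. For a gene with 1 feature, the median over features and the brightest feature equal the mean. Those values could not move, so the count overstates how stable the differences were. Of 820 list medians under alternatives, 60 changed sign, over 37 lists, 29 of them among genes with at least 2 features, where lists keep few members. Each of the 60 had a main median of at most 0.31 in size, and the 7 that changed sign under another scaling had one of at most 0.05. The median of serine, glycine and one-carbon enzymes stood at -0.31 in the 1 member with several features. The mitosis median ranged from 0.62 to 0.79, replication from 0.62 to 0.73, HOX from -0.76 to -0.50 and metallothioneins from -0.88 to -0.79. The sterol median ranged from 0.00826 to 0.60 and the laminin median from -0.65 to 0.17, where 0.00826 and 0.17 each come from the 1 member with several features. With both arrays above the median, the chromosome 9 median was 0.24, and with loess centring 0.25, both chosen after seeing the data. No paired analysis was possible because each group holds 1 array, and leaving out a replicate was likewise not possible.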

Other observations

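None of 126 olfactory receptor genes was above the floor. Of 138 C2H2 zinc finger genes named ZNF above the floor, 26 were past 1.5-fold lower (18.8%) and 9 past 1.5-fold higher (6.52%), beside 11.5% and 12.6% among all genes. Lysosomal enzymes and membrane proteins had 6 of 37 lower (16.2%) and 3 higher (8.11%), not far from the 11.5% and 12.6% among all genes. CTSB, cathepsin B, stood at 792 with TGF-beta1, 2320.3 under hypoxia and 1817 untreated, and PSAP, the saposin precursor, at 8052, 13258 and 14089.8. Autophagy genes had 4 of 25 lower (16%) and 1 higher (4%), beside the same shares. The receptor SQSTM1 stood at 1799 with TGF-beta1, 7739 under hypoxia and 3967 untreated. Genes induced by hypoxia through HIF had 3 of 32 higher and 3 lower with TGF-beta1, 9.38% each way, below both shares among all genes.

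Of 11545 unnamed features above the feature median, a floor other than that of the named genes, 345 (2.99%) stood 2-fold or more above the untreated array with TGF-beta1 and 593 (5.14%) as far below it. Among guidance genes (semaphorins, plexins, ephrins, slits and netrins), 9 of 22 above the floor were past 1.5-fold lower (40.9%) and 3 higher (13.6%). Among all genes, 11.5% were lower and 12.6% higher. The repellent SLIT3 stood at 426 with TGF-beta1, 803 under hypoxia and 1133 untreated, and the ephrin EFNA1 at 272, 852 and 739.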
